A study of Mus musculus with 2 samples.

Results

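The genes described here encode 9 enzymes of nitrogen, ornithine and proline handling: Cps1, Otc, Ass1 and Arg2 of the urea cycle, Oat, Aldh18a1, Pycr1 and Prodh of the exchange between ornithine, glutamate and proline, and Sdsl, a serine and threonine dehydratase-like enzyme. They were picked by symbol from a single-cell expression table of mouse small intestinal organoids, and 9 of 9 symbols were found among its 37172 genes. Organoids are hollow epithelial bodies grown from isolated crypts. The members were chosen with their levels in collagen and Matrigel cells in view, so their differences between the cultures are given as a description, without a test. The second question, whether Cps1 moved with its partners from cell to cell, was read within each culture.

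Both cultures started from crypts of C57BL/6 wild-type mice and were harvested on day 4. Matrigel, a basement membrane extract, was covered with medium holding EGF at 50 ng/mL, Noggin at 100 ng/mL and R-spondin1 at 400 ng/mL, and the cells were freed with Cell Recovery Solution. Collagen type I cultures had 3 additions to that medium, 100 ng/mL Wnt3a, 10 mM nicotinamide and 1% bovine serum albumin, and the cells were freed with collagenase at 0.5 mg/mL. Matrix, medium and release differed together and cannot be told apart. Cells were tagged through an EpCAM antibody with a hashtag, a barcode that names the culture, and were sequenced as 1 pooled library. The labels name 1 cell suspension per culture, and how many mice it came from is not stated there.

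After filtering there were 336 collagen cells with 42540314 counts (median 124619 per cell) and 1599 Matrigel cells with 285201649 counts (median 179044 per cell). Cells of both cultures were epithelial by their markers, with Epcam at 1458 CPM (counts summed over the cells of a culture and scaled to a total of 1000000) in collagen and 1076 CPM in Matrigel. The 6 fibroblast markers summed to 1.12 and 1.03 CPM and the 4 endothelial markers to 1.95 and 1.84 CPM. The 7 immune markers summed to 17.6 and 9.99 CPM, of which Cd14 gave 16.1 and 8.92 CPM, and none of these markers stood at 0. The own hashtag made up less than 95% of a cell's hashtag counts in 17 collagen and 63 Matrigel cells.

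In the small intestine, carbamoyl phosphate synthetase (Cps1) and ornithine transcarbamylase (Otc) work in mitochondria and turn ammonia, bicarbonate and ornithine into citrulline. Ornithine for this step comes from arginine through arginase, or from glutamate through pyrroline-5-carboxylate synthase (Aldh18a1) and ornithine aminotransferase (Oat). Pyrroline-5-carboxylate, the compound in the middle of this route, is reduced to proline by Pycr1 and is formed again from proline by proline dehydrogenase (Prodh). Argininosuccinate synthase (Ass1) and lyase (Asl) carry citrulline on to arginine, and arginase 2 (Arg2) is the mitochondrial arginase. Cps1 is also used as a marker of hepatocytes and of small intestinal epithelium.

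Promoter sequences are shown for 4 members, chosen by their rank correlation with Cps1 in collagen cells, given below. It was highest for Otc and Oat and lowest for Aldh18a1 and Pycr1. RefSeq entries matched 6 of 9 members, with none under the symbols Cps1, Arg2 and Sdsl. They are of build GRCm38.p6, which is not the build of the counts, and the first entry of a gene was used. The 250 bases before the annotated start are printed on the strand of the gene, for Otc on chromosome X from 10252055 to 10252304 (plus strand), for Oat on chromosome 7 from 132576399 to 132576648 (minus strand), for Aldh18a1 on chromosome 19 from 40588464 to 40588713 (minus strand) and for Pycr1 on chromosome 11 from 120643749 to 120643998 (minus strand). Capitals mark matches to the motifs named below.
Otc: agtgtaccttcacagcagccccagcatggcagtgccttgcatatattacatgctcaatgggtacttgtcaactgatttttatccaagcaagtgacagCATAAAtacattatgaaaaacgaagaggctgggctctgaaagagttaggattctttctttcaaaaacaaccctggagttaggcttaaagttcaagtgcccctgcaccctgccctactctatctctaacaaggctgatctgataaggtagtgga
Oat: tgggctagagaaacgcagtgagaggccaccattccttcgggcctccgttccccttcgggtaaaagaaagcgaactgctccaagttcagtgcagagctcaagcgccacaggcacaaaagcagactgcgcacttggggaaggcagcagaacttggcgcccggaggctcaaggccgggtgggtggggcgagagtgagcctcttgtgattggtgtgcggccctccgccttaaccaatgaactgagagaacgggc
Aldh18a1: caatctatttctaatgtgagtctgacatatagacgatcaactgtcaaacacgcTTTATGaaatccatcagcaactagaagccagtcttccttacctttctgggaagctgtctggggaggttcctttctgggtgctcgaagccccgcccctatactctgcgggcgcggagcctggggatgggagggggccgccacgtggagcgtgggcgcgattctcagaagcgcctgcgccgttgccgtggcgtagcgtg
Pycr1: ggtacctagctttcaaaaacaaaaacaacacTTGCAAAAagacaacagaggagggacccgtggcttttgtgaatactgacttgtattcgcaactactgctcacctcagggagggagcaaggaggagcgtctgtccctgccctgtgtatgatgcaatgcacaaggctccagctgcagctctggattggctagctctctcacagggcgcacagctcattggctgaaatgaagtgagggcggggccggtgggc

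Both strands were searched for the cores AAAGTCC (hepatocyte nuclear factor 4), GTTAAT (hepatocyte nuclear factor 1), TTGCNNAA (C/EBP), TTTATG (CDX) and TATAAA, the core of the TATA box. These are held in turn by 3.65%, 6.52%, 9.55%, 11.1% and 13.0% of 27025 promoters of the same length. TTTATG matched once in Otc, 153 bases before the start, and once in Aldh18a1, 197 bases before it. TTGCNNAA matched once in Pycr1, 219 bases before the start. None of these letters occurred in the windows of Oat, Ass1 and Prodh. The Otc window held 1 CpG and 43.6% G and C, against 14 and 60% for Oat, 18 and 57.2% for Aldh18a1, 6 and 53.6% for Pycr1, 23 and 75.6% for Ass1 and 11 and 63.2% for Prodh. The median over all promoters was 6 CpG and 52.0%. Otc had the fewest CpG of the 6.

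All 9 members stood lower in collagen than in Matrigel cells, 8 of them at least 2-fold. The log2 ratio used here is log2((collagen CPM + 1)/(Matrigel CPM + 1)), and the count is a property of how the members were picked. Of 10593 genes reaching 5 CPM in either culture, 8.91% were at least 2-fold lower and 8.21% at least 2-fold higher in collagen. The members' median log2 ratio was -1.82, and that of all these genes -0.02. Every member reached 5 CPM in Matrigel, and 5 of the 9 did so in collagen (Cps1, Otc, Oat, Aldh18a1 and Sdsl). The members nearest to the 2-fold line were Oat, just past it at -1.07, and Aldh18a1, just short of it at -0.94. Intervals below are exact 95% Poisson intervals for levels and exact 95% binomial (Clopper-Pearson) intervals for shares of cells. They cover counting error only, not the spread between cultures, and are too narrow if copies of 1 molecule were counted more than once.

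Cps1, which makes the carbamoyl phosphate of the urea cycle, had a log2 ratio of -3.23, and 26 genes had a lower one. It was the lowest of the 9 by this measure, but Sdsl was lower with 0.1 CPM added in place of 1 (-3.31 against -3.25) and in thinned cells (-3.32 against -3.14). Its level was 69.4 CPM (67.0 to 72.0) in collagen and 659.8 CPM (657 to 663) in Matrigel. Single collagen cells ran from 0 to 847 CPM with a median of 12.9, and single Matrigel cells from 0 to 1605 CPM with a median of 649, so the ranges overlapped. Matrigel cells were rather alike in Cps1 and collagen cells were not. The 10% of cells with most Cps1 held 60.8% of the collagen counts and 19.8% of the Matrigel counts, and 24 collagen cells held 50% of that culture's Cps1. To compare shares of cells at equal depth, each cell was thinned at random to 77972 counts. This dropped 72 collagen and 122 Matrigel cells that were shallower. The share of cells with a Cps1 count was then 62.1% for 264 collagen cells (56.0 to 68.0) and 99.1% for 1477 Matrigel cells (98.4 to 99.5). Without thinning the shares were 66.7% and 98.7%.

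Otc, which joins carbamoyl phosphate to ornithine, stood at 15.6 CPM (14.4 to 16.8) in collagen and 109 CPM (107 to 109.9) in Matrigel, a log2 ratio of -2.72. Thinned cells had an Otc count in 32.6% (27.0 to 38.6) of the collagen and 94.0% (92.6 to 95.1) of the Matrigel culture. The median cell had none in collagen and 94.8 CPM in Matrigel, with highest values of 175 and 541 CPM. Like Cps1, Otc was found in nearly every Matrigel cell, and it was found in a smaller share of collagen cells than Cps1.

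Ass1 and Arg2 were far sparser in both cultures. Ass1 stood at 1.86 CPM (1.47 to 2.31) in collagen and 18.3 CPM (17.8 to 18.8) in Matrigel, a log2 ratio of -2.76, and was found in 7.58% (4.69 to 11.5) and 49.7% (47.1 to 52.3) of thinned cells. Its collagen level rests on 79 counts. Part of its reads could not be told from the near copy Gm5424: 10.3% of its values above 0 were fractional, and in 81.5% of 108 cells with a fractional Ass1 value the value in Gm5424 made it whole. Arg2 stood at 3.49 CPM (2.94 to 4.09) and 11.3 CPM (10.9 to 11.7), a log2 ratio of -1.45. The share of thinned cells with Arg2 was 6.06% (3.50 to 9.66) for collagen and 11.04% (9.48 to 12.8) for Matrigel. In both cultures a handful of cells held most Arg2: 4 collagen cells and 14 Matrigel cells held 50% of the counts, with highest values of 730.0 and 710.2 CPM. The Arg2 ratio rests on the Matrigel enterocyte-like cells described below, and without the enterocyte-like and secretory clusters it was 0.025.

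The enzymes between ornithine, glutamate and proline differed less between the cultures than Cps1 and Otc did. Oat, which interconverts ornithine and pyrroline-5-carboxylate, stood at 44.8 CPM (42.8 to 46.8) in collagen and 94.7 CPM (93.6 to 95.9) in Matrigel and was found in 69.7% (63.8 to 75.2) and 97.2% (96.2 to 97.9) of thinned cells. Aldh18a1, which makes pyrroline-5-carboxylate from glutamate, stood at 30.3 CPM (28.7 to 32.0) and 59.1 CPM (58.2 to 60.02), with 69.3% (63.4 to 74.8) and 93.1% (91.7 to 94.3) of cells. The median collagen cell held 11.7 CPM of Oat and 17.1 CPM of Aldh18a1, and the median Matrigel cell 80.4 and 51.2 CPM. For Oat 99.95% and for Aldh18a1 95.9% of values above 0 were fractional, so their reads were shared with other loci. The levels, shares of cells and correlations of both genes are therefore uncertain. No partner locus was identified for either.

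Prodh, the first enzyme of proline breakdown, and Pycr1, the last of proline synthesis, were sparse. Prodh stood at 2.77 CPM (2.30 to 3.32) in collagen and 12.3 CPM (11.9 to 12.8) in Matrigel, a log2 ratio of -1.82, with 12.1% (8.44 to 16.7) and 43.0% (40.5 to 45.6) of thinned cells. Pycr1 stood at 3.50 CPM (2.96 to 4.11) and 9.31 CPM (8.95 to 9.67), a log2 ratio of -1.20, with 10.6% (7.16 to 15.0) and 30.1% (27.7 to 32.5) of thinned cells. In thinned cells the Pycr1 ratio was -0.93, short of 2-fold. Sdsl, whose product is related to the serine dehydratase of liver, was close to Cps1 in its ratio, at -3.20. It stood at 9.51 CPM (8.59 to 10.5) in collagen and 95.3 CPM (94.1 to 96.4) in Matrigel and was found in 23.1% (18.2 to 28.7) and 95.7% (94.5 to 96.6) of thinned cells. The plot of single cells shows the 9 genes side by side.

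**Figure D1:**
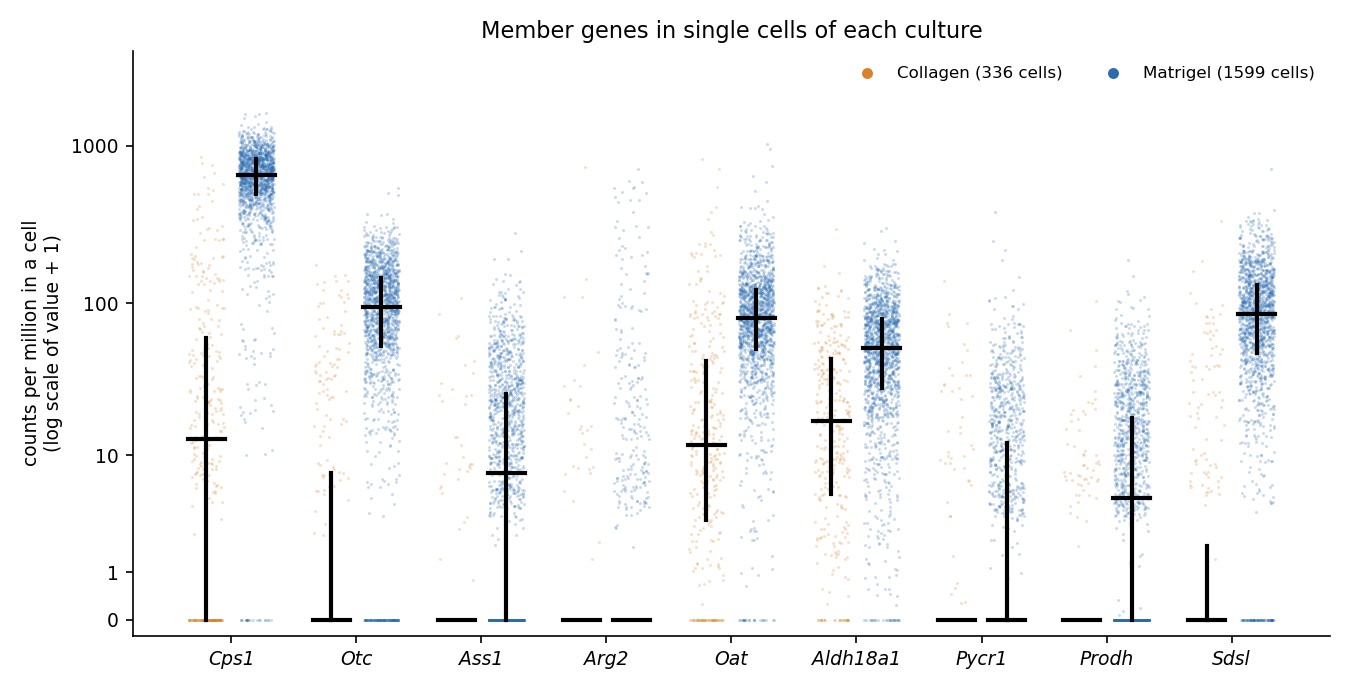
Counts of each member in single cells, scaled to CPM (log axis of the value plus 1), for 336 collagen and 1599 Matrigel cells; horizontal bars are medians and vertical bars run from percentile 25 to percentile 75. Cps1 lies in a narrow band around a median of 649 CPM in Matrigel cells and spreads from 0 to 847 CPM in collagen cells.

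The wider pathways did not stand uniformly lower in collagen. Across 10 lists of amino acid genes (129 symbols, members left out), 90 genes reached 5 CPM, of which 17 (18.9%) were at least 2-fold lower and 11 (12.2%) at least 2-fold higher in collagen, with a median log2 ratio of -0.29. For comparison, 8.91% of all genes were that much lower and 8.21% that much higher. Among the urea cycle genes that are not members, 1 of 6 was 2-fold lower and 1 was 2-fold higher. Slc25a15, the mitochondrial ornithine carrier, stood at 37.2 CPM in collagen and 78.3 CPM in Matrigel (log2 ratio -1.05). Nags, which makes the activator that Cps1 needs, stood at 5.81 and 11.3 CPM (-0.85). Asl, the enzyme after Ass1, was on the other side, at 57.0 CPM in collagen and 43.3 CPM in Matrigel (0.39), and so was Slc25a12, a mitochondrial aspartate and glutamate carrier, at 23.9 and 10.2 CPM (1.15). Arg1, the liver-type arginase, did not reach the floor, at 0.15 and 1.79 CPM. The members Cps1, Otc and Ass1 had larger differences than these genes, and the member Arg2 stood at -1.45. As the members were picked with these levels in view, this order describes the choice and is no result about the steps.

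Of the 4 ornithine and proline genes outside the members, 1 was 2-fold lower and 1 was 2-fold higher. Pycr3, which reduces pyrroline-5-carboxylate in the cytosol, stood at 27.3 CPM in collagen and 71.9 CPM in Matrigel (-1.37). Pepd, a dipeptidase that frees proline, stood at 83.6 and 42.4 CPM (0.96), and P4ha1, a subunit of collagen prolyl hydroxylase, at 61.9 and 25.2 CPM (1.26). Pepd and P4ha1 were thus on the other side of 0 from the 4 members of this list.

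In the serine, glycine and threonine list, which holds Sdsl, 3 of the 10 other genes were 2-fold lower and 1 was higher. Shmt1, the cytosolic serine hydroxymethyltransferase, stood at 19.2 and 79.5 CPM (-2.00), the mitochondrial Shmt2 at 57.2 and 118 CPM (-1.03), and Gcsh, of the glycine cleavage system, at 41.0 and 83.1 CPM (-1.003). Srr, serine racemase, stood at 20.9 CPM in collagen and 6.86 CPM in Matrigel (1.48). All 5 pyrimidine genes had ratios below 0, with a median of -0.98 and 2 at least 2-fold lower. Cad, whose first domain makes carbamoyl phosphate in the cytosol, stood at 11.3 and 20.5 CPM (-0.80), Dhodh at 6.27 and 23.0 CPM (-1.72), Ctps at 12.9 and 32.8 CPM (-1.28) and Umps at 22.6 and 45.6 CPM (-0.98).

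Other lists were mixed. Of 12 glutamine and transamination genes 1 was lower and 0 were higher: Glul, glutamine synthetase, at 21.3 and 73.6 CPM (-1.74), while Got2 (-0.62), Gpt2 (-0.95) and Asns (-0.53) lay within 2-fold. Of 12 polyamine genes 1 was lower (Srm, spermidine synthase, -1.25) and 1 higher (Sat1, which acetylates spermidine and spermine, 1.15), and Odc1, which makes putrescine from ornithine, had a ratio of -0.93 and Smox 0.86. Of 13 catabolic genes 3 were lower, namely Cth, cystathionine gamma-lyase (-1.60), Mat2a (-1.38) and Ivd (-1.11), and Bckdk had a ratio of -0.79. Of 6 creatine and nitric oxide genes 3 were higher, among them Gamt (1.61) and the creatine transporter Slc6a8 (1.35), 1 was lower (Ckb, -1.21), and Ckmt1 had a ratio of 0.50. Of 13 amino acid transporters 3 were lower and 3 higher: Slc1a1, a glutamate transporter, stood at 2.34 and 17.3 CPM (-2.45) and Slc7a5 at 5.03 and 12.9 CPM (-1.20), against Slc3a1 at 37.1 and 7.76 CPM (2.12) and Slc7a7 at 54.4 and 19.6 CPM (1.43). Of the 17 ATF4 targets outside the members 3 were lower, Slc7a5, Atf5 (-1.15) and Shmt2, and 1 was higher, Ddit3 (1.29). Aldh18a1 and Pycr1, also counted among such targets, are members and were left out here. A part of ATF4 in the members' levels was not tested.

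**Figure D2:**
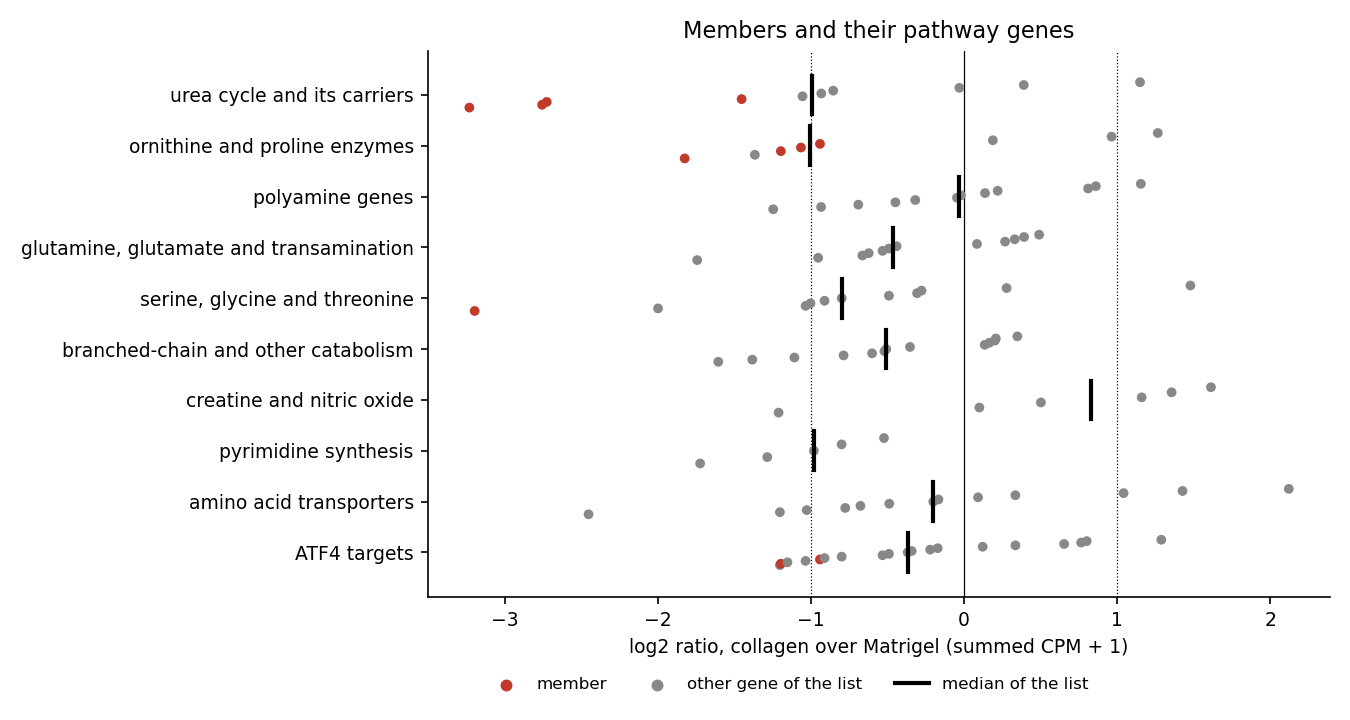
Log2 ratio of collagen over Matrigel (summed CPM plus 1) for each gene of the 10 lists that reached 5 CPM in either culture, with members in red, other genes in grey and the list median as a black bar; dotted lines mark 2-fold. Cps1, at -3.23, and Sdsl, at -3.20, lie left of every other gene of their lists, and the list medians run from -1.003 to 0.83.

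Within collagen cells, Cps1 had its highest rank correlations among the members with Otc and Oat. Across the 264 thinned collagen cells the Spearman correlation of Cps1 was 0.43 with Otc and 0.41 with Oat. As nearly all Oat values were fractional, part of the Oat correlation may belong to another locus. Among the 11769 genes found in at least 10% of these cells, Otc ranked 8 and Oat 11 from the top, with a median correlation of 0.02 over the genes, 3.54% of them at 0.2 or more and 2.18% at -0.2 or less. Otc was found in 86 cells, 69 of them with Cps1, and Oat in 184 cells, 123 of them with Cps1. Correlations of Cps1 with the other 6 members were 0.16 for Arg2, 0.10 for Sdsl, 0.04 for Ass1, 0.04 for Prodh, -0.03 for Aldh18a1 and -0.08 for Pycr1. Ass1 and Arg2 were found in fewer than 10% of the cells, which leaves a rank correlation little room. Arg2 was found in 16 cells, 13 of them with Cps1, and Ass1 in 20 cells, 13 of them with Cps1. A like degree for Arg2 can thus not be excluded. The Aldh18a1 value depended on the measure, at 0.13 on CPM of cells not thinned and 0.14 by Pearson correlation of log2(CPM + 1). Pycr1 was found together with Cps1 in only 15 cells. The cells share 1 library and 1 suspension, so these values describe those cells. Within the largest collagen cluster alone (242 thinned cells) the values were 0.39 for Otc and 0.40 for Oat.

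In thinned Matrigel cells Sdsl, Otc and Oat had nearly equal rank correlations with Cps1, and those of Otc and Oat were smaller than in collagen. Across 1477 thinned cells the correlation of Cps1 was 0.17 with Sdsl, 0.16 with Otc and 0.15 with Oat, at ranks 113, 121 and 181 of 12056 genes, of which 0.523% reached 0.2 and 0.249% lay at -0.2 or less. The remaining values were 0.08 for Prodh, -0.01 for Ass1, -0.02 for Aldh18a1, -0.06 for Pycr1 and -0.10 for Arg2. These Matrigel values depended on which cells entered. For Otc they ran from -0.038 in the Dmbt1/Alpi-led cluster to 0.65 in the mixed secretory cluster (63 thinned cells), and for Oat from 0.038 in the stem-like cluster to 0.36 in the secretory one. By Pearson correlation of log2(CPM + 1) the order of the cultures turned, at 0.40 for Otc and 0.45 for Oat in collagen against 0.53 and 0.49 in Matrigel. Sdsl in Matrigel came after both by that measure, at 0.25, and also by rank on CPM of cells not thinned, at 0.20 against 0.24 and 0.23. Whether the correlation differs between the cultures was not tested.

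**Figure D3:**
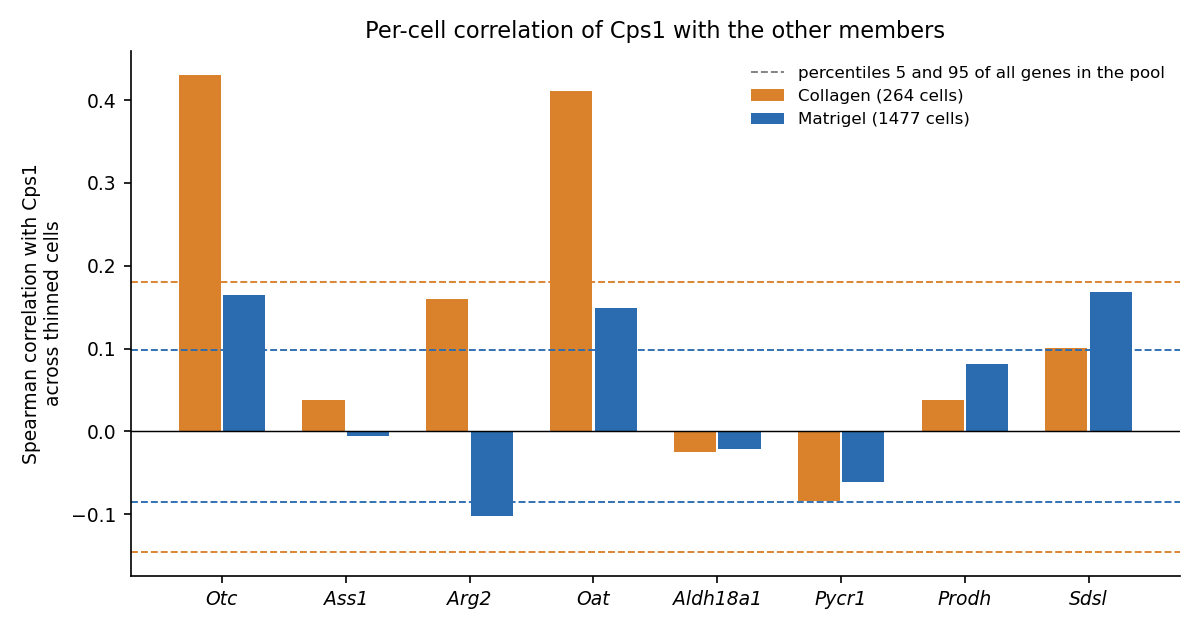
Spearman correlation of Cps1 with each other member across thinned cells, 264 from collagen and 1477 from Matrigel; dashed lines are percentiles 5 and 95 of all genes found in at least 10% of the cells of that culture. Otc and Oat stand at 0.43 and 0.41 in collagen, and Aldh18a1 and Pycr1 lie at or below 0 in both cultures.

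Among pairs without Cps1, Otc and Oat had a correlation of 0.28 in collagen and 0.14 in Matrigel. Aldh18a1 and Pycr1, consecutive enzymes from glutamate to proline, had 0.22 in collagen and 0.07 in Matrigel. Otc and Arg2 had 0.21 and 0.16, Arg2 and Oat 0.18 and 0.14, and Ass1 and Sdsl 0.22 and -0.03. All but the last of these pairs had the same sign in both cultures, and none reached the values of Cps1 with Otc and Oat in collagen.

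Grouping cells by their Cps1 count showed the size of this co-variation. In collagen, 100 thinned cells had no Cps1 count, 89 had 1 to 4 and 75 had 5 to 64. Otc stood at 6.16, 10.95 and 40.7 CPM in these groups and was found in 17%, 22.5% and 65.3% of the cells. Oat stood at 31.3, 32.0 and 86.4 CPM, which put the difference in the group with most Cps1. Sdsl stood at 8.08, 6.63 and 13.3 CPM, and Aldh18a1 at 30.9, 32.4 and 28.7 CPM. Arg2 stood at 1.41, 2.31 and 3.76 CPM and was found in 3%, 4.49% and 12% of the cells. Ass1 (1.80, 1.44 and 1.88 CPM), Prodh (3.46, 1.44 and 3.59 CPM) and Pycr1 (3.72, 5.62 and 3.08 CPM) had no such order. Markers of 1 cell type did not all move alike. The enterocyte marker Fabp1 stood at 318, 1168 and 2344 CPM, but the enterocyte marker Alpi at 69.6, 106 and 67.5 CPM. The stem cell marker Lgr5 stood at 19.6, 23.6 and 55.7 CPM. Olfm4 stood at 0, 0 and 111 CPM and was found in 4% of the cells with most Cps1. Its smallest deposited value above 0 was 12, so its 0 values are no measured absence. The fetal and regenerative marker Ly6a stood at 261, 260.0 and 73.7 CPM. Median counts per cell before thinning were 133775, 128805 and 148983. The median share of the own hashtag was 99.4%, 99.3% and 99.4%, but a median cannot show a few mixed cells. Collagen cells of clusters made mostly of Matrigel cells, described below, were not left out of these groups. Without them, an alternative chosen after seeing the data, the correlation of Cps1 was 0.39 with Otc and 0.40 with Oat. The part of cell state in the co-variation was not tested.

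In Matrigel the groups held 0 to 44 (509 cells), 45 to 59 (480) and 60 to 133 (488) Cps1 counts. Otc stood at 96.9, 111 and 115 CPM, Oat at 91.0, 94.7 and 107 CPM and Sdsl at 85.8, 104 and 111 CPM, all with small steps. Arg2 went the other way, at 20.5, 6.15 and 3.15 CPM. Ass1 was level, at 17.9, 18.1 and 17.8 CPM, and Aldh18a1 stood at 60.9, 57.8 and 56.6 CPM. The stem cell markers were highest with most Cps1, Lgr5 at 107, 141 and 167 CPM and Olfm4 at 1038, 1708 and 2529 CPM, and the enterocyte marker Fabp1 was lowest there, at 874, 232 and 67.5 CPM.

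**Figure D4:**
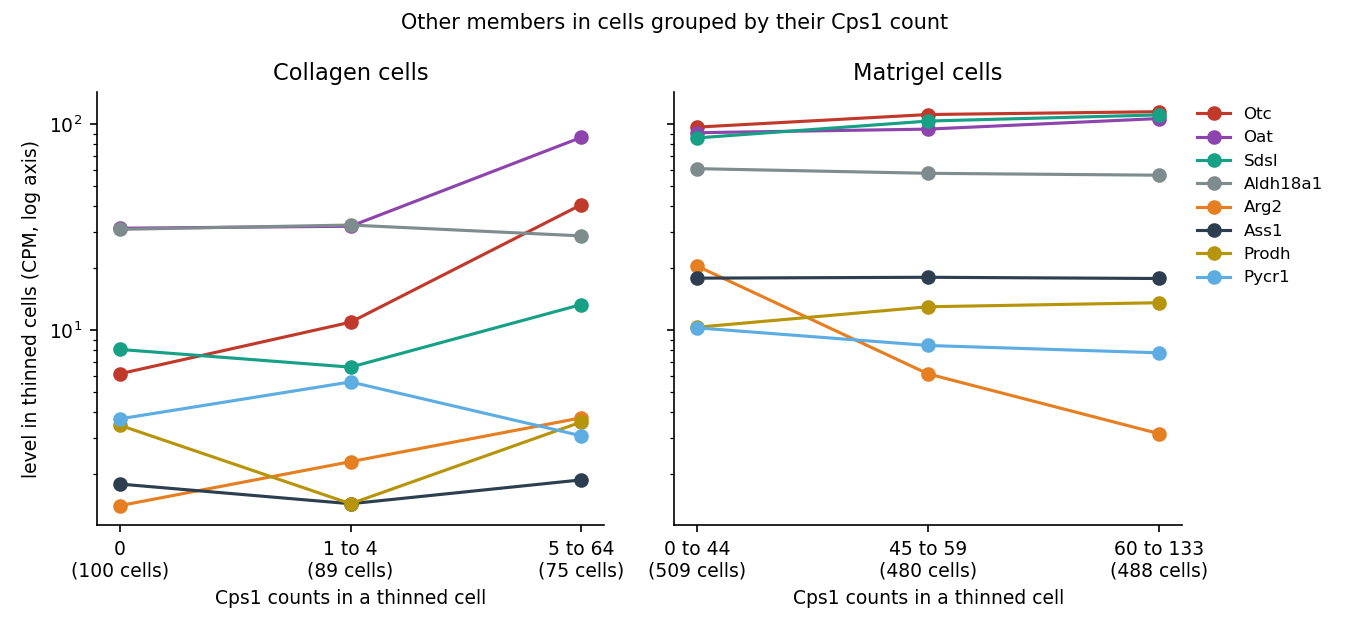
Level of the other members (CPM of thinned cells, log axis) in cells grouped by their Cps1 count, for collagen on the left and Matrigel on the right, with the number of cells under each group. Otc and Oat are highest in the collagen group with 5 to 64 Cps1 counts, at 40.7 and 86.4 CPM, and Arg2 goes from 20.5 to 3.15 CPM across the Matrigel groups.

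The 3 mitochondrial enzymes for citrulline from ornithine and their ornithine supply, Cps1, Otc and Oat, were found together in 59 of 264 thinned collagen cells (22.3%) and in 1367 of 1477 Matrigel cells (92.6%). None of the 3 was found in 35 collagen cells (13.3%) and in 6 Matrigel cells (0.41%). The median cell showed 3 of the 9 members in collagen and 6 in Matrigel.

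Genes outside the members were closer to Cps1 than most members were. Among 7361 genes found in at least 30% of thinned collagen cells, the highest correlations with Cps1 were those of Pigr, the polymeric immunoglobulin receptor (0.55), Acot1 (0.50), Jaml (0.47), Smoc2, a stem cell marker (0.45), Aldh1b1 (0.43) and Otc itself (0.43). The lowest were those of Plac8 (-0.49), Msln, which encodes mesothelin (-0.48), and S100a11 (-0.48). Among 7913 genes in Matrigel cells the highest were Olfm4 (0.42), Slc12a2 (0.36), Hook1 (0.35), Cdca7 (0.35), Clca3b (0.33) and Gkn3 (0.32), of which Olfm4, Slc12a2 and Gkn3 are stem cell markers. The lowest there were Lgals4 (-0.32), the cell cycle inhibitor gene Cdkn1a (-0.31) and Anxa13 (-0.29). Values of Olfm4 and S100a11 are affected by a gap in the table, which holds no low values for them. No member other than Otc was among the 6 highest in either culture.

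Clusters were made without the members and the pathway lists, so the levels below did not shape them. Of 9 clusters, 1 was fetal- and regenerative-like (282 collagen cells and 1 Matrigel cell, with 10 of 10 markers at least 2-fold above the other cells). The Matrigel cells fell mainly into a stem-like cluster (436 cells, with 3 of 10 stem markers at least 2-fold above the other cells, and with the stress-response genes Atf3 and Ccn1 beside Olfm4, Gkn3 and Lgr5 among its leading genes), a cluster led by Cenpa and Ccnb2 (598), a cycling-like cluster (195), a cluster led by Dmbt1 and Alpi (148) and an enterocyte-like cluster (44, with 14 of 15 markers). Another 79 Matrigel and 10 collagen cells formed a mixed secretory cluster with goblet, Paneth and enteroendocrine markers. A cluster of 97 Matrigel and 7 collagen cells had a median mitochondrial share of 18.9% and 43880 counts, and 25 collagen cells with 1 Matrigel cell were led by Sprr1a and Ly6d. The last 2 were left unnamed, as were those led by Cenpa and Dmbt1.

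Arg2 was concentrated in the enterocyte-like cells. It stood at 279 CPM (268 to 291) in enterocyte-like cells, 17.7 CPM (16.2 to 19.3) in the Dmbt1/Alpi-led cluster and 1.46 CPM (1.21 to 1.76) in stem-like cells. The 44 enterocyte-like cells, 2.75% of Matrigel cells, held 71.0% of all Matrigel Arg2 counts, and the Dmbt1/Alpi-led cluster held 16.5%. At clustering resolution 0.25 the cluster with most enterocyte markers had 191 cells and Arg2 at 74.9 CPM. With each cell thinned to 30000 counts, Arg2 was found in 90.9% of enterocyte-like cells (78.3 to 97.5) and in 3.21% of stem-like cells (1.77 to 5.33). Oat followed the same order, at 243 CPM (232 to 254), 130.2 CPM (126 to 134) and 95.4 CPM (93.2 to 97.6), and so did Otc, at 164 CPM (156 to 173), 124 CPM (120.3 to 128) and 108 CPM (106 to 110.3). Aldh18a1 stood at 79.6, 68.4 and 53.1 CPM in these 3 clusters.

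Cps1 had the opposite order, at 409.8 CPM (396 to 424) in enterocyte-like, 612 CPM (603 to 621) in Dmbt1/Alpi-led and 746 CPM (739.9 to 752) in stem-like cells. It was found in all 44 enterocyte-like and all 436 stem-like cells at 30000 counts. Ass1, at 3.23 CPM (2.07 to 4.65) against 21.0 CPM (20.03 to 22.1), and Prodh, at 3.42 CPM (2.27 to 4.94) against 14.2 CPM (13.4 to 15.1), were also lower in enterocyte-like than in stem-like cells. Sdsl stood at 76.6 CPM (70.8 to 82.9) and 115 CPM (113 to 118). Pycr1 had its highest Matrigel levels in the mixed secretory cluster, at 17.9 CPM (15.5 to 20.6), and the Dmbt1/Alpi-led cluster, at 15.3 CPM (13.9 to 16.8), whose intervals overlap, against 8.75 CPM in stem-like and 4.39 CPM in enterocyte-like cells. In the cycling-like cluster Cps1 stood at 665 CPM, Otc at 111 CPM and Sdsl at 88.3 CPM. In the mixed secretory cluster of Matrigel, Cps1 stood at 216 CPM (207 to 224), Otc at 25.9 CPM (23.0 to 29.1) and Oat at 19.4 CPM (16.9 to 22.2), the lowest of the 7 Matrigel clusters for each of the 3. Some of its cells carried the Cps1 level: the median cell held 50.8 CPM, sub-clusters ran from 11.1 to 370.3 CPM, and at clustering resolution 1 the cluster with most secretory markers stood at 50.4 CPM (46 cells). Enterocyte-like cells thus had more Otc, Oat and Arg2 but less Cps1 than stem-like cells.

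**Figure D5:**
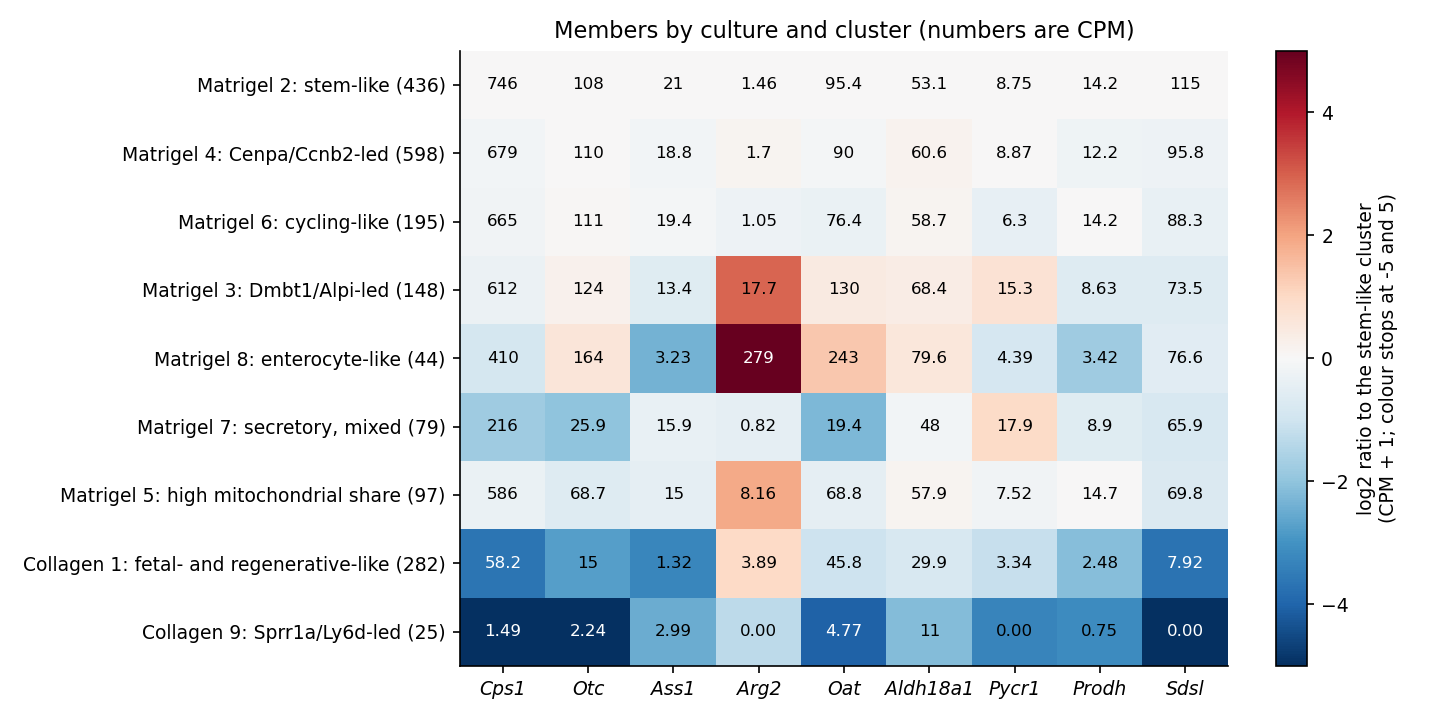
Summed CPM of each member (numbers) in the clusters of each culture with at least 20 cells, with the number of cells in brackets; colours give the log2 ratio to the stem-like cluster (CPM plus 1) and stop at 5 in either direction. Arg2 stands at 279 CPM in the 44 enterocyte-like cells and at 1.46 CPM in the stem-like cells, and Cps1 is highest in the stem-like cells at 746 CPM.

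In the fetal- and regenerative-like cluster, which held most collagen cells, Cps1 stood at 58.2 CPM (55.8 to 60.7), Otc at 15.0 CPM (13.8 to 16.3), Oat at 45.8 CPM (43.7 to 48.0) and Arg2 at 3.89 CPM (3.299 to 4.58). At 30000 counts Cps1 was found in 46.1% of its 282 cells (40.2 to 52.1). In the Sprr1a/Ly6d-led cells it was found in 1 of 25 (4%, 0.10 to 20.4), a share at equal depth that is set here beside the others as a possible level of free RNA. Median counts before thinning were 128805 and 45571. In the same 25 cells Otc, Ass1 and Prodh were each found in 4%, Oat in 8% (0.98 to 26.0) and Aldh18a1 in 16% (4.54 to 36.1). Whether counts in these 25 cells are free RNA or their own was not tested. For Ass1, at 3.19% (1.47 to 5.97), and Prodh, at 6.38% (3.83 to 9.90), the fetal- and regenerative-like cells did not stand apart from these shares. With 25 cells, whose interval for 4% reaches 20.4%, this cannot show that Ass1 and Prodh lie at such a level. Otc, at 19.9% (15.4 to 24.999), Oat, at 42.9% (37.1 to 48.9), and Aldh18a1, at 47.2% (41.2 to 53.2), had higher shares there, with an overlapping interval for Otc. Pycr1, Arg2 and Sdsl had no count in those 25 cells, for which 3 counts over the 25 cells give a limit of 12% and the exact binomial interval one of 13.7%.

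A further 29 collagen cells fell in clusters made mostly of Matrigel cells, and 8 of them had an own hashtag share below 95%. They held 25.2% of the collagen Cps1 counts, at 227 CPM, and 13.7% of the Otc counts, at 27.8 CPM. The 227 CPM is an average over unlike cells. Cps1 stood at 195 CPM in the 7 of the cycling-like cluster and at 125 CPM in the 7 of the cluster with a high mitochondrial share. In the 10 of the secretory cluster it stood at 44.9 CPM. The remaining cells, 2 in the stem-like and 3 in the Cenpa/Ccnb2-led cluster, were thus above the average as a group. Without them Cps1 stood at 56.3 CPM in collagen and its log2 ratio was -3.53. The Oat ratio was then -1.08 and the Arg2 ratio -1.37.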

How the data were processed

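Both libraries, 1 of cDNA and 1 of hashtags, were made from the same pooled cells on BD Rhapsody beads with the TAS-Seq protocol, per the labels. The submitters' processing notes name cutadapt 4.1, STARsolo 2.7.10a, R 4.2.1 and build GRCm39, without roles. The authors deposited expected counts, unscaled, for 37172 genes in 2090 cells, and 75.6% of values above 0 were whole (within 1e-06). How copies of 1 molecule were treated is not stated in the labels. The deposited hashtag values are whole-number counts, and the 9 hashtag columns of no labelled culture were not used.

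Cell names in the deposited table give the culture, and 139 cells named doublets were left out of the comparisons. No doublet caller was run. Kept cells had 500 or more genes and a mitochondrial share of no more than 30%. Counts were summed per culture and scaled to CPM, and sums were rounded for Poisson intervals (scipy 1.17.1). In cells not thinned, values were rounded before a cell was called positive. With 1 suspension per culture no test was run and no p-value computed. Thinning to 77972 counts, percentile 10 of counts per cell, rounded fractional counts first. Clusters were made with scanpy 1.11.5 from 2000 variable genes, 30 components, 15 neighbours and resolution 0.5. Members, pathway lists and markers were chosen with earlier results of these data known. Named were all 9 members, up to 4 other genes of each list (at least 10 CPM, largest ratio first) and, per culture, the 6 highest and 3 lowest correlations with Cps1. A list gene that this rule also names is not reported here. Arg1, Lgr5, Olfm4, Ly6a, Fabp1 and Alpi in cell groups were named after their values were seen. The calculations were checked on simulated counts. Alternatives covered scaling, pseudocount, floor, thinning, hashtag share, cells left out, correlation measure and resolution.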

Additional observations from a re-analysis of the deposited data

How the results depend on the processing

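Of 81 alternative values of the members' log2 ratios, 1 changed sign: Arg2 stood at 0.025 without the enterocyte-like and secretory clusters, and its values ran from -1.71 to 0.025. The Cps1 ratio was -3.14 in thinned cells, -2.54 with cultures set by a hashtag share of 60%, -3.32 at a share of 95%, and -3.53 without the collagen cells in Matrigel-led clusters, an alternative chosen after seeing the data, as was thinning to 30000 counts. Oat ran from -1.14 to -0.97 and Pycr1 from -1.39 to -0.93, each crossing 2-fold. At a floor of 20 CPM, 4 of 5 members counted were 2-fold lower and 7 other pathway genes 2-fold higher. Cps1 was found in 46.2% of collagen cells with 2 counts asked, and in 44.6% of collagen and 98.1% of Matrigel cells at 30000 counts. In Matrigel, the correlation of Cps1 with Otc was 0.24 on CPM, 0.53 by Pearson on log2(CPM + 1), 0.11 without the enterocyte-like and secretory clusters, and -0.038, 0.088 and 0.65 within the Dmbt1/Alpi-led, Cenpa/Ccnb2-led and secretory clusters. With Oat it was 0.23, 0.49 and 0.086 under the first 3 of these, and 0.038, 0.25, 0.066 and 0.36 within the stem-like, Dmbt1/Alpi-led, cycling-like and secretory clusters. At resolution 0.25 the cluster with most enterocyte markers grew to 191 cells, with Arg2 at 74.9 CPM and Cps1 at 569 CPM. The cluster with most secretory markers had Cps1 at 187 CPM (65 cells) at resolution 0.25 and 50.4 CPM (46 cells) at resolution 1. Median-of-ratios scaling moved all genes by 0.03 on the log2 scale. The causes of these shifts were not tested, beyond the cells or genes that each alternative leaves out. No paired analysis was possible because each culture is 1 suspension.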

Other observations

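Within the mixed secretory cluster the members separated by sub-cluster, a split made after seeing the data and too small for more than a description. In 22 enteroendocrine-like cells (8 of 8 markers at least 2-fold above the other cells, leading genes Chgb, Cck and Tac1) Ass1 stood at 50.6 CPM (41.1 to 61.9), found in 13 of the 22, and Cps1 at 11.1 CPM (6.87 to 17.0), found in 9. These 22 cells also had 5 Paneth, 5 enterocyte and 3 fetal and regenerative markers raised, so they were not of 1 clean type. In 8 cells led by defensin genes, with 8 of 8 Paneth and 8 goblet markers raised, Pycr1 stood at 94.6 CPM (73.8 to 120), found in 7 of the 8, and Cps1 at 54.1 CPM (38.6 to 73.6). In 24 cells led by Agr2, Fcgbp and Spink4, with 9 of 9 goblet and 6 Paneth markers, Pycr1 stood at 25.7 CPM (20.5 to 31.7), Cps1 at 34.0 CPM (28.1 to 40.9) and Otc at 2.69 CPM (1.23 to 5.10). In 35 cells led by Defa39, Clca1 and Tff3, 8 goblet, 6 Paneth, 5 tuft and 2 enteroendocrine markers were raised, so these too were not of 1 clean type. Cps1 stood there at 370.3 CPM (355 to 386), Otc at 47.3 CPM (41.9 to 53.1) and Pycr1 at 9.58 CPM (7.28 to 12.4). Ass1 stood at 50.6, 1.35, 15.5 and 7.22 CPM in these sub-clusters, in the order given. The sub-cluster with least Cps1 thus had most Ass1, but Ass1 was lowest in the 8 defensin-led cells and not where Cps1 was highest. Collagen cells made up 5, 0, 4 and 1 of these sub-clusters.

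The 137 cells named doublets that passed the filters had Cps1 at 552 CPM, Otc at 95.2 CPM and Sdsl at 90.7 CPM, between the levels of the collagen and the Matrigel cells, as were the other 6 members.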
